A study of Homo sapiens with 12 samples.

Results

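Open chromatin was examined around the genes of 6 transcription factors that drive the transition of epithelial cells to a mesenchymal state: ZEB1, ZEB2, SNAI2, TWIST1, TWIST2 and PRRX1. A peak was taken as belonging to a gene when it lay on the gene or within 50 kb of it on the human genome build hg19. By this rule 66 of the 170706 peaks in 6 ATAC-seq lists belonged to the 6 windows, and overlapping peaks of different libraries merged into 36 of 84664 regions. The compared lines were ARPE-19, a line of retinal pigment epithelium that arose without engineering and was grown in serum, and H7, a line of embryonic stem cells grown in a defined stem cell medium. Each line had 3 libraries of 500000 cells, all untreated as far as the labels say, and each line is a single line rather than a sample of donors. Whether the triplicates of a line came from separate cultures is not in the labels, so the p-values below cover the spread between libraries and no more. Defining markers of the 2 cell types were not examined, because gene positions on hg19 were at hand for the 6 factors alone.

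ZEB1 and ZEB2 are zinc finger and homeobox proteins, and SNAI2 is a zinc finger protein of the Snail family. These 3 bind E-box sequences and are best known as repressors of epithelial genes such as the E-cadherin gene. TWIST1 and TWIST2 are basic helix-loop-helix proteins that bind E-boxes as dimers, and PRRX1 is a paired-related homeobox protein of mesenchymal tissue. Pigment epithelial cells are known to take on mesenchymal traits when they lose contact with their neighbours, in culture and in scarring disease of the retina, while embryonic stem cells form an epithelial sheet. In ATAC-seq the Tn5 transposase cuts accessible DNA, and open enhancers and promoters appear as peaks over the local background.

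The DNA at the start of 3 of the genes is shown, because peaks were called so unevenly around them: ZEB1, the locus with no peak in any list, and ZEB2 and PRRX1, the loci with the most. The sequences are from RefSeq on GRCh38.p14, run from 250 bases before to 50 bases after the most upstream start listed, and were not placed on the hg19 peaks. The table matched 4 of the 6 genes. Capitals mark CACCTG or CAGGTG, the same E-box read on either strand, which is the form bound by the ZEB and Snail proteins. It is contained in the looser E-box CANNTG.
ZEB1 (chr10:31318167-31318466, plus strand): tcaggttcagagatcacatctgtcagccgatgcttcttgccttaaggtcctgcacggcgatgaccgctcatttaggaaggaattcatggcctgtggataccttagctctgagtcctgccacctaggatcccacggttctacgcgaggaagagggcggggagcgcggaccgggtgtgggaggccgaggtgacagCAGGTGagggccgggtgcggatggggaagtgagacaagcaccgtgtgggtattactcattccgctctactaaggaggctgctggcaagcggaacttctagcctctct
ZEB2 (chr2:144520070-144520369, minus strand): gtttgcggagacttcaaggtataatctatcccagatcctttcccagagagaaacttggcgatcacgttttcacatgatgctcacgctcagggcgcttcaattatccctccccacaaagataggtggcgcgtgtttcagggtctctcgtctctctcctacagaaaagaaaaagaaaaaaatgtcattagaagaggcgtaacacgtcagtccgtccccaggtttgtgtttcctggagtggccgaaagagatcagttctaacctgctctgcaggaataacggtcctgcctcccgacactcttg
PRRX1 (chr1:170663881-170664180, plus strand): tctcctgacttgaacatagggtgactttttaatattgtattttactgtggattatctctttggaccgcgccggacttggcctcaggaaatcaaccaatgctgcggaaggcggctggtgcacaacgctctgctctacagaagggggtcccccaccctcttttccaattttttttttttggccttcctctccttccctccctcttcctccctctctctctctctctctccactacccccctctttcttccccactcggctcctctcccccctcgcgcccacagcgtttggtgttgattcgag
The ZEB1 stretch held 1 such E-box and was 58.3% G and C with 17 CpG dinucleotides. The ZEB2 stretch held 0 and was 49.0% G and C with 14 CpG, and the PRRX1 stretch held 0 and was 53.0% G and C with 11 CpG. The start of TWIST2 also held 0, at 66.7% G and C with 29 CpG. Of all 35116 promoters in the table, 20.6% held this E-box and 68.7% held a CANNTG, and the median promoter was 58.7% G and C with 14 CpG. The ZEB1 start was thus close to the median promoter in base composition. These matches describe letters in a window and say nothing of binding.

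The lists gave no read totals, so the depth of the libraries is not known. The background that the peak caller expected per position was recovered as 0.425 to 0.483 reads for ARPE-19 and 0.592 to 0.653 reads for H7. It scales with the number of reads and with the length given to each read, which is not known here. The lists held 40110 to 48460 peaks in ARPE-19 and 8622 to 15351 in H7. At the genome-wide background the fewest reads at the summit of a called peak were 4 in every ARPE-19 library and 5, 5 and 6 in H7 replicates 1, 2 and 3. A region without a peak was therefore not called in these lists, which does not show that its chromatin was closed.

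In the full lists, more peaks were called around the 6 genes in ARPE-19 than in H7, roughly in proportion to the longer ARPE-19 lists. The windows held 15, 16 and 21 peaks in ARPE-19 replicates 1, 2 and 3, with a mean of 17.3 ± 3.21, and 6, 6 and 2 peaks in H7 replicates 1, 2 and 3, with a mean of 4.67 ± 2.31 (SD, n = 3 each). Every ARPE-19 library had more than every H7 library. The log2 difference of ARPE-19 from H7, with 0.5 added to each number, was 1.90 (SE 0.48, exact two-sided permutation p = 0.1 over 20 assignments). With 3 libraries against 3, 0.1 is the smallest p that this test can give, so no comparison of libraries here can pass 0.05. Covered length averaged 4.60 ± 0.87 kb for ARPE-19 and 1.06 ± 0.63 kb for H7 (SD, n = 3 each), and its log2 difference was 2.36 with an SE of 0.70 (exact permutation p = 0.1).

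Relative to the length of each full list, the 2 lines could not be separated. In lists cut to the same length, described below, every ARPE-19 library had more window peaks than every H7 library. Of every 10000 peaks of a library, 3.37, 3.99 and 4.33 lay in the windows in ARPE-19, and 3.91, 4.38 and 2.32 in H7. The 3 values of one line lay among those of the other. The log2 difference was 0.19 (SE 0.30, exact permutation p = 0.7), and without H7 replicate 3, which had the shortest list, it was -0.093. The windows were also about as rich in peaks as the rest of the genome. At the density of all nuclear peaks over the chromosomes, 1.48 per 100 kb in ARPE-19 and 0.419 in H7, the 1106 kb of the windows would hold 16.4 peaks in an ARPE-19 library and 4.64 in an H7 library.

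The average hid large differences between the genes. PRRX1 had 3.58 peaks per 100 kb in ARPE-19 and 0.755 in H7, TWIST1 had 2.61 and 0.978, and ZEB2 had 2.54 and 0.989. These means were all above the genome-wide density of their line. In H7 they rested on few peaks. H7 replicates 1, 2 and 3 had 2, 2 and 0 at PRRX1, 1 each at TWIST1, and 3, 3 and 1 at ZEB2. SNAI2 had 0.964 and TWIST2 had 0.759 peaks per 100 kb in ARPE-19, below that density, and neither had a peak in H7. ZEB1 had none in either line. At the 5 genes with any peak, every ARPE-19 library had more peaks than every H7 library. The same was true of 53.4% of the 13441 tiles of 200 kb that held a peak anywhere in the genome, and the reverse of 2.15%, so the direction at the 5 genes is the common one.

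**Figure D1:**
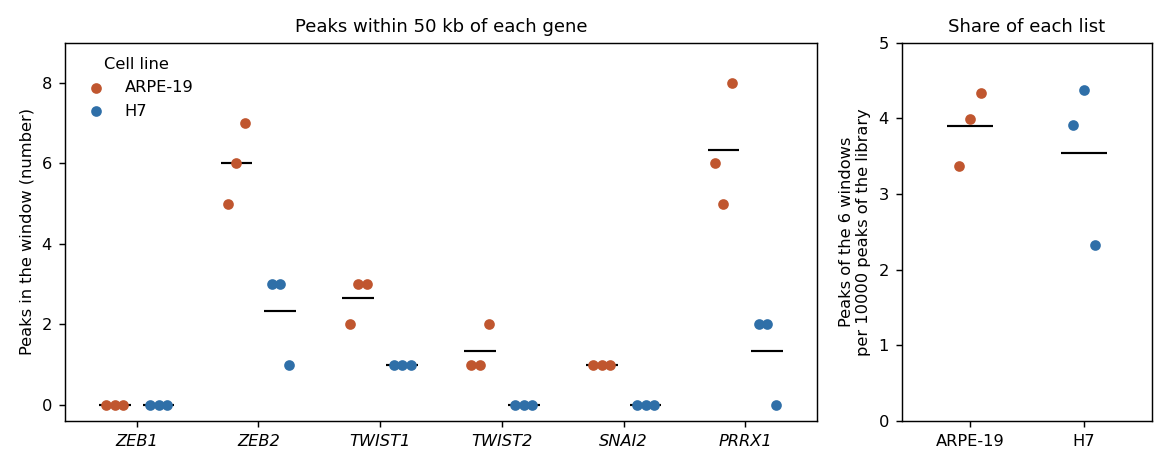
Left, number of peaks in each library (points) within 50 kb of each of the 6 genes, ARPE-19 left of H7, with the mean as a black line. Right, peaks of the 6 windows per 10000 peaks of the library. At ZEB2 the ARPE-19 libraries had 5 to 7 peaks and the H7 libraries 1 to 3, while the shares on the right overlapped between the lines.

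At the level of single regions the lines did not meet. Of the 36 regions, 25 were called in ARPE-19 libraries alone, 11 in H7 libraries alone, and 0 in both lines. Over all merged regions these classes made up 69.2%, 22.2% and 8.51%. In the windows, 10 regions (27.8%) were ARPE-19-only, meaning called in all 3 libraries of ARPE-19 but in none of H7, against 26.0% of all regions. The opposite class, H7-only, had 1 region (2.78%), against 1.82% of all regions. These shares are close to those of the genome, and no test of the difference was made. Calls in 1 library alone made up 17 of the 36 regions (47.2%), against 46.4% of all regions. They were 9 of the 11 H7 regions, with 6 to 8 summit reads, and 8 of the 25 ARPE-19 regions, with 4 to 9. Most of the H7 regions were therefore calls of few reads that the other H7 libraries did not repeat. The share over all regions was not split by line.

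**Figure D2:**
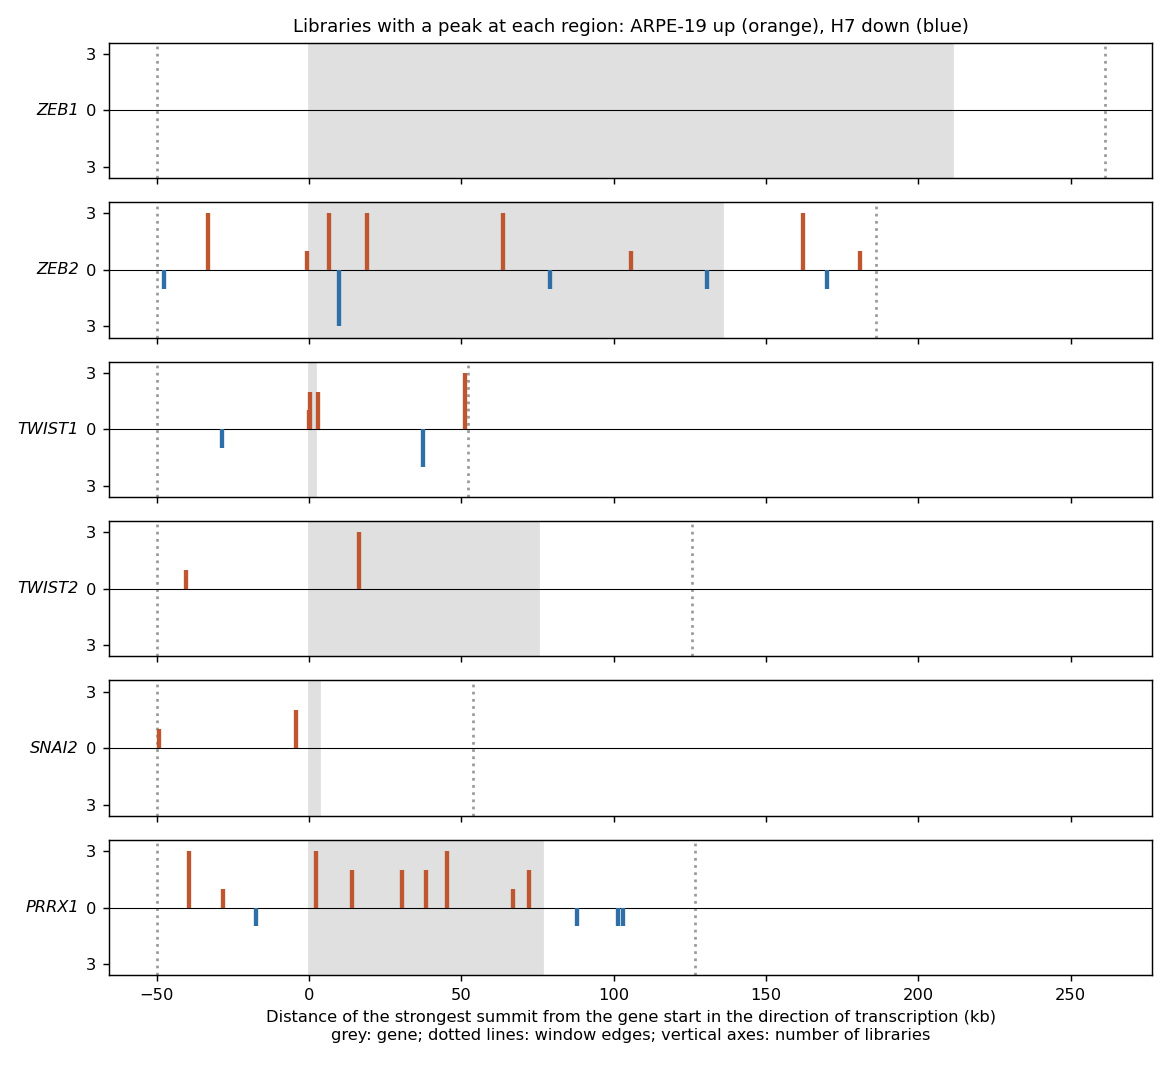
Each bar is 1 of the 36 regions, placed at the distance of its strongest summit from the gene start in the direction of transcription (kb), with its height the number of ARPE-19 libraries (up) or H7 libraries (down) that had a peak. Grey marks the gene and dotted lines the window edges: ZEB1 is empty, and the PRRX1 gene holds ARPE-19 bars alone. ARPE-19 and H7 bars are mixed along ZEB2, where every H7 bar but that of the H7-only region is 1 library high.

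ZEB1, whose product represses epithelial genes and is itself held down by microRNAs of the miR-200 family in epithelial cells, had no peak in any of the 6 libraries. The gene lies on chromosome 10 from 31607424 to 31818742 and its window spans 311 kb. At the genome-wide density such a window would hold 4.61 peaks in an ARPE-19 library and 1.31 in an H7 library. The nearest peak before the gene ended 75.4 kb from it, in ARPE-19 replicate 1 alone, at a region from 31531892 to 31532056. The nearest after it lay 73.5 kb past the gene's end, in a region from 31892271 to 31892761 that had a peak in 3 of 3 ARPE-19 and 2 of 3 H7 libraries. That region had 14, 17 and 13 summit reads in ARPE-19 replicates 1, 2 and 3, and 10 and 15 in H7 replicates 2 and 3, and was not called in H7 replicate 1. Peaks could thus be called nearby in both lines.

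The stretch with no peak in any list was 360 kb long. Of the 84635 gaps between neighbouring regions in the genome, whose median was 17.9 kb, 306 (0.362%) were as long or longer. Together these gaps, which include centromeres, took up 10.8% of the span between the first and last peak of the chromosomes. A stretch of this length without a peak is therefore uncommon but not particular to ZEB1. How many of these gaps hold a gene or a gene start was not counted. Why the start of ZEB1 was not called was not tested.

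ZEB2, the close relative of ZEB1 that also acts in the neural crest, had 5, 6 and 7 peaks in ARPE-19 replicates 1, 2 and 3, and 3, 3 and 1 in H7 replicates 1, 2 and 3. This averaged 6 ± 1 peaks for ARPE-19 and 2.33 ± 1.15 for H7 (SD, n = 3 each), a difference of 3.67 peaks (exact permutation p = 0.1). The gene lies on chromosome 2 from 145141942 to 145277958 and is read from the higher coordinate. Its window held 13 regions, of which 5 were ARPE-19-only and 1 was H7-only. The other 7 were each called in 1 library, those of H7 with 7 or 8 summit reads and those of ARPE-19 with 5 to 9.

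The strongest ZEB2 region in ARPE-19 lay inside the gene from 145214229 to 145214463, 63.6 kb from the start. It had 30, 19 and 34 summit reads in ARPE-19 replicates 1, 2 and 3 and no peak in H7. In strength, ranked by -log10 q, its peaks stood at percentiles 96.7, 84.8 and 96.9 of the 3 ARPE-19 lists. The next, from 145115417 to 145116001, lay past the end of the gene, 162 kb from its start. It had 24, 14 and 29 summit reads in the ARPE-19 libraries, at percentiles 92.4, 75.7 and 95.0. Both regions were thus among the stronger peaks of every ARPE-19 list.

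The single H7-only region of the 6 windows also lay inside ZEB2, from 145268098 to 145268433, 9.71 kb from the start. It had 9, 15 and 12 summit reads in H7 replicates 1, 2 and 3, at percentiles 43.5, 89.2 and 72.7 of their lists. In ARPE-19 no peak was called there, although ARPE-19-only regions lay on both sides. The one from 145271357 to 145271633, only 2923 bases away and 6.51 kb from the gene start, had 11, 19 and 11 summit reads in the ARPE-19 libraries. The one from 145258802 to 145259160, 8937 bases away on the other side, had 11, 12 and 14. These 2 were outside the rule for named regions and were singled out after their values were seen, for their place beside the H7-only region.

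Near the start of ZEB2 itself, 1 weak peak was called, in ARPE-19 replicate 3, from 145278623 to 145278809. Its summit lay 783 bases before the start, with 9 summit reads at percentile 13.5 of that list. No H7 library had a peak within 1 kb of the start.

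SNAI2, which encodes the Snail family member also named Slug, had 1 peak in each ARPE-19 library and 0 in each H7 library (exact permutation p = 0.1). The gene lies on chromosome 8 from 49830236 to 49833988 and is read from the higher coordinate. The peaks of ARPE-19 replicates 1 and 2 fell in 1 region from 49838151 to 49838549, 4.34 kb before the gene start, with 10 summit reads in each library. The peak of ARPE-19 replicate 3 was another, from 49882927 to 49883207, 49.1 kb before the start, with 5 summit reads. No SNAI2 region was therefore called in all 3 libraries of a line, and equal numbers of peaks stood for different places. Both regions were named after their values were seen.

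TWIST1, which is needed for the cranial mesenchyme and the skull, had a peak within 1 kb of its start in all 3 ARPE-19 libraries. No other gene did by the starts used here, which are the ends of the gene positions on hg19. Within 2 kb of such a start, PRRX1 had one in all 3 as well. The RefSeq starts of the sequences shown were not placed on hg19, so distances from them are not known here. The gene lies on chromosome 7 from 19155091 to 19157295 and is read from the higher coordinate. The window had 2, 3 and 3 peaks in ARPE-19 replicates 1, 2 and 3, and 1 in each H7 library, a difference of 1.67 peaks (exact permutation p = 0.1). At the start, ARPE-19 replicates 1 and 3 had a peak from 19156870 to 19157078 with 6 summit reads in each. ARPE-19 replicate 2 had one from 19157185 to 19157347 with 8 summit reads, 106 bases from the other region. These peaks were weak, at percentiles 10.9, 18.5 and 0.163 of the lists of ARPE-19 replicates 1, 2 and 3.

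Away from the start, TWIST1 had 1 ARPE-19-only region, from 19105815 to 19106216, 51.3 kb from the start and past the gene's end. It had 12, 10 and 9 summit reads in ARPE-19 replicates 1, 2 and 3, at percentiles 67.7, 62.0 and 34.7. In H7, a region from 19119860 to 19120022, 37.4 kb from the start, had 7 summit reads in each of replicates 2 and 3 and no peak in replicate 1. These H7 values are close to the fewest reads at a called peak, 5 in H7 replicate 2 and 6 in H7 replicate 3. Among protein-coding genes, RefSeq on GRCh38.p14 lists 1 neighbour within 50 kb of TWIST1, FERD3L, and 0 for each of the other 5 factors.

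TWIST2, a relative of TWIST1 expressed in dermal mesenchyme, rested on 1 strong region. The gene lies on chromosome 2 from 239756673 to 239832244. The window held 1, 1 and 2 peaks in ARPE-19 replicates 1, 2 and 3 and 0 in each H7 library (exact permutation p = 0.1). The ARPE-19-only region lay inside the gene from 239772905 to 239773211, 16.4 kb from the start. It had 23, 34 and 24 summit reads in the 3 ARPE-19 libraries, at percentiles 89.4, 98.3 and 90.5 of their lists, and the 3 summits lay within 11 bases of each other. The other peak, in ARPE-19 replicate 3 alone, had 4 summit reads, the fewest that could be called. No library had a peak within 1 kb of the start of TWIST2.

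PRRX1, a homeobox gene of limb and craniofacial mesenchyme, had the most peaks per 100 kb of the 6 genes in ARPE-19. The gene lies on chromosome 1 from 170631869 to 170708560. The window held 6, 5 and 8 peaks in ARPE-19 replicates 1, 2 and 3, and 2, 2 and 0 in H7 replicates 1, 2 and 3. This averaged 6.33 ± 1.53 peaks for ARPE-19 and 1.33 ± 1.15 for H7 (SD, n = 3 each), a difference of 5 peaks (exact permutation p = 0.1). On the gene itself lay 5, 4 and 6 peaks in ARPE-19 and 0 in each H7 library. At the genome-wide density the whole window would hold 2.62 peaks in an ARPE-19 library and 0.741 in an H7 library. The gene is shorter than the window, so few or no H7 peaks would lie on it at that density. No H7 peak touched TWIST1, TWIST2 or SNAI2 either. All H7 peaks of this window lay in the flanks, each in 1 library with 6 to 8 summit reads.

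The strongest PRRX1 region lay inside the gene from 170677203 to 170677793, 45.4 kb from the start. It had 26, 26 and 34 summit reads in ARPE-19 replicates 1, 2 and 3, at percentiles 91.9, 93.2 and 97.3, and no peak in H7. A second, from 170592319 to 170592647, lay 39.4 kb before the start with 21, 16 and 18 summit reads, and its 3 summits fell within 6 bases. The ARPE-19-only region nearest to the start of any of the 6 genes spanned 170633678 to 170634204. Its strongest summit was 2.25 kb inside PRRX1, counted from the start of the hg19 gene position. The RefSeq start of PRRX1 was not placed on hg19, so its distance from this region is not given. The region was singled out with its values known. It was weaker, with 7, 6 and 12 summit reads in the 3 ARPE-19 libraries.

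**Figure D3:**
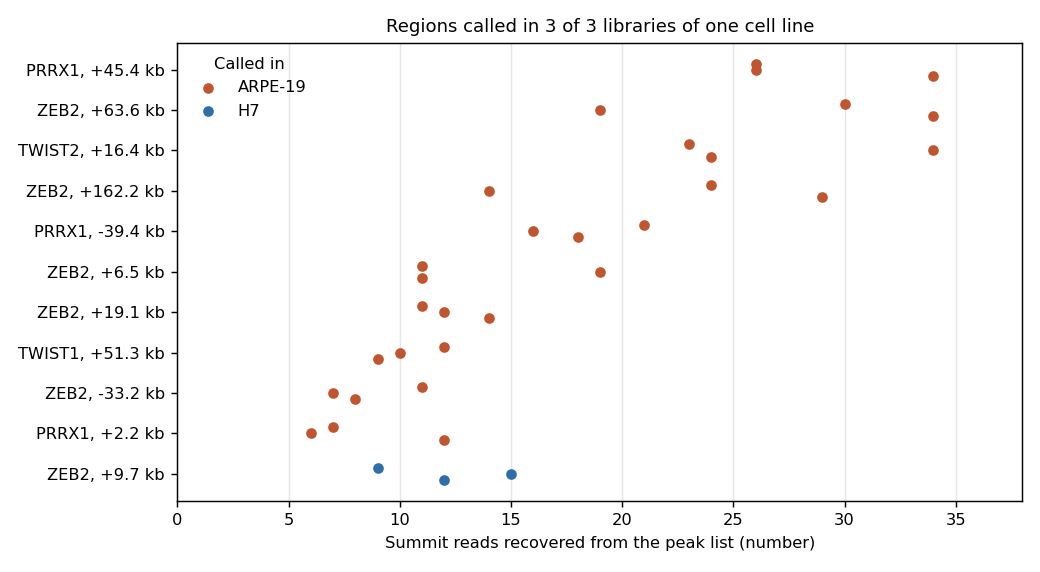
Reads at the summit of the peak in each library (points) for the 11 regions called in 3 of 3 libraries of a line, with the distance of each from its gene start. The 10 ARPE-19-only regions had 6 to 34 summit reads and had no H7 peak, and the H7-only region in ZEB2, at the bottom, had 9 to 15.

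Most calls lay away from the gene starts. Of the 36 regions, 17 touched a gene, 10 lay before a start and 9 past an end, and 3 came within 1 kb of a start, all 3 of them in ARPE-19. Counted as libraries with a peak within 1 kb of a start of the hg19 gene positions, this made 4 of 18 pairs of gene and library in ARPE-19 and 0 of 18 in H7. The share of all gene starts with a peak was not available on hg19, and the ARPE-19 lists were longer, so nothing particular to the 6 genes is read from these counts. The peaks on the genes themselves numbered 10, 9 and 12 in ARPE-19 replicates 1, 2 and 3, and 2, 2 and 1 in H7 replicates 1, 2 and 3. On genes without flanks, a setting added after the data were seen, the share of the list was higher in ARPE-19 by 0.83 on the log2 scale (exact permutation p = 0.1). With flanks of 10 kb it was higher by 1.05 (exact permutation p = 0.1), and with flanks of 100 kb the log2 difference was -0.16. The difference on the genes rested on PRRX1. Without it, a setting also added after the data were seen, 1.12, 1.25 and 1.24 of every 10000 peaks lay on the other genes in ARPE-19 replicates 1, 2 and 3, and 1.30, 1.46 and 1.16 in H7 replicates 1, 2 and 3, and the log2 difference was -0.11 (exact permutation p = 0.4). With flanks of 10 kb and without PRRX1 it was 0.27 (exact permutation p = 0.2).

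The 10 ARPE-19-only regions resembled that class over the genome in the agreement of their summits, which the overlap that defines the class partly fixes. The summits of the 3 libraries lay within 6 to 194 bases of each other, with a median of 64 bases, against 67 bases for all 22042 ARPE-19-only regions. Averaged over the 3 ARPE-19 lists, the median region stood at percentile 73.9 of -log10 q, against percentile 64.8 for the whole class. Its median width of 344 bases was below the 429 bases of that larger class. In 6 of the 10, all 3 peaks were above the middle of their list, against 50.8% of the whole class.

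Over all peaks of the windows, strength varied widely between libraries of a line. The median peak stood at percentiles 62.3, 60.7 and 34.7 of the lists of ARPE-19 replicates 1, 2 and 3, and at percentiles 26.4, 38.1 and 45.9 in H7 replicates 1, 2 and 3. The middle of a whole list is the 50th percentile by construction. ARPE-19 replicate 3 had both the longest list and the most window peaks, and 8 of its 21 were above the middle of its list. No window peak had a local background above 4.21 times that of its library.

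**Figure D4:**
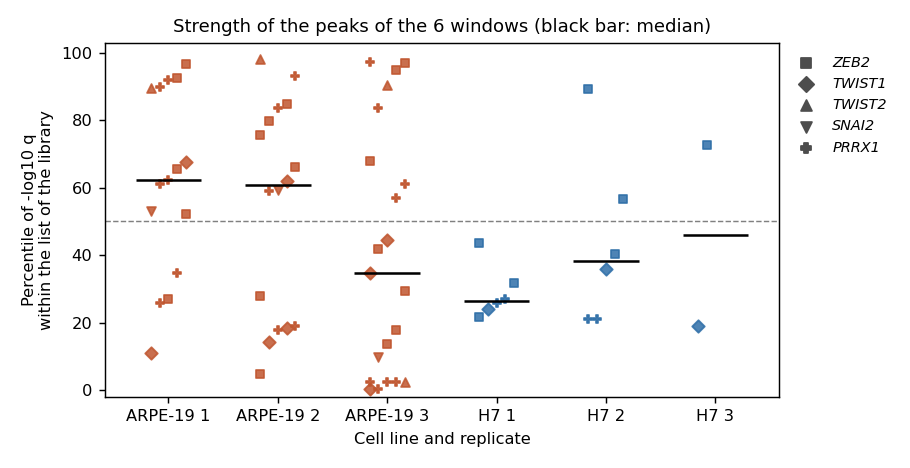
Percentile of -log10 q within the list of its own library for every peak of the 6 windows, by library, with the gene as the marker shape and the median as a black bar. The strongest ARPE-19 peaks belonged to ZEB2, TWIST2 and PRRX1, and the strongest H7 peak to ZEB2.

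With every list shortened to its 8622 strongest peaks, the length of the shortest, 5 peaks were left in each ARPE-19 library and 0, 3 and 2 in H7 replicates 1, 2 and 3. At this equal length every ARPE-19 library thus had more window peaks than every H7 library. The log2 difference in peak number was 1.75 (exact permutation p = 0.1, the smallest this test can give). The window peaks left fell in 10 regions, of which 4 (40.0%) were ARPE-19-only, against 14.7% of the 27314 regions of these shorter lists. H7-only regions numbered 0, against 6.74%. The 4 were the TWIST2 region, the region inside ZEB2 from 145214229, and the PRRX1 regions from 170592319 and 170677203. The H7-only region of ZEB2 remained in 2 of 3 H7 libraries.

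The window edge set which peaks were counted. Just inside it lay the SNAI2 region of 5 summit reads, 48.9 kb from the gene, and the TWIST1 region from 19105815, likewise 48.9 kb from its gene. Just outside lay an H7 region 50.9 kb from PRRX1, called in 1 library with 11 summit reads. An H7 region 52.5 kb from SNAI2, from 49777548 to 49777710, was called in replicate 3 with 13 summit reads. The SNAI2 regions counted in ARPE-19 had fewer reads. The genome-wide background was also lower there, 0.425 to 0.483 reads against 0.633 in H7 replicate 3, so the reads do not rank these regions by strength. Another region, 51.5 kb past the end of ZEB2 from 145089649 to 145090477, was called in all 6 libraries with 13 to 31 summit reads, so that a region open in both lines lay just beyond the edge.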

How the data were processed

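The data were 6 ATAC-seq peak lists, 1 per library and 3 per line, not pooled. Peaks were called with MACS2, with bedtools also used, on hg19, per the submitters' processing notes; the aligner, how duplicates were treated and whether reads were shifted are not given in the sources used here. The 6 samples of 4C were not analysed here. Each deposited score equals the -log10 q times 10, rounded down to a whole number. The deposited fold is a ratio, of summit reads plus 1 to local background plus 1. The -log10 values of p and q were deposited by the authors and belong to a test within 1 library. These are the authors' values per peak and were ranked within a list.

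Peaks overlapping by at least 1 base were merged. Summit reads and background were solved from fold and -log10 p, and met the deposited -log10 p within 0.001 for at least 99.988% of nuclear peaks of each library. They may include duplicates, and counting error alone limits peaks of few reads. Libraries were compared by an exact two-sided permutation test. Other settings tried were a minimum -log10 q of 5, lists of equal length, flanks of 10, 100 and 0 kb, other definitions of regions, and leaving out each library. In simulated lists 100% of 200 planted regions of each line were recovered, and the right reads for 100% of 4829 simulated peaks. The planted regions overlapped by design, and the simulated peaks were made with the formula that was solved. These checks therefore test the code and not the calls in the data.

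Gene positions are those of the rule, and a gene start is the end of that position from which the gene is read. The strands of TWIST1 and SNAI2 are textbook knowledge, the others are from RefSeq. Exons and introns on hg19 were not used here. Regions were named by a rule: per gene the 2 strongest called in all libraries of a line, those within 1 kb of a start and those in 2 or more H7 libraries. The members and lists were chosen with earlier results of these data known. Other genes of the pathway and cell type markers were not counted, lacking hg19 positions. The tools were Python 3.11.15, scipy 1.17.1, numpy 2.4.6, matplotlib 3.10.9 and pandas 2.3.3.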

Additional observations from a re-analysis of the deposited data

How the results depend on the processing

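Peak number and covered bases in the 6 windows stayed higher in ARPE-19 under every alternative run for each, with log2 differences of 1.44 to 3.46 and 1.68 to 6.43; the largest rest on an H7 library with no window peak. The share of the list turned to -0.16 with flanks of 100 kb, to -0.081 without PRRX1 and to -0.11 on the genes without flanks and without PRRX1 (both added after the data were seen), and lay between -0.093 (without H7 replicate 3) and 0.37 over the lists with 1 library left out; it could not be computed with a -log10 q of at least 5 or with the same number of peaks, where an H7 library had no window peak. The same number of peaks left 4 regions of the ARPE-19-only class and 0 of the H7-only class. The difference in peaks was then -0.33 at TWIST1, 0 at SNAI2 and 0.67 at ZEB2 (exact permutation p = 0.7 at ZEB2), against 3.67 at ZEB2 with the full lists. At TWIST2 the difference in peaks was 1 and at PRRX1 it was 2 (exact permutation p = 0.1 each), against 1.33 and 5 with the full lists. Without flanks (added after the data were seen) the difference in peaks was 0 at SNAI2, and there were 6 ARPE-19-only regions, as with flanks of 10 kb. With flanks of 100 kb there were 2 H7-only regions and ZEB1 differed by 0.67 peaks. A -log10 q of at least 5, and calls that had to cover 50% of a merged region, left 0 H7-only regions. At least 2 of 3 libraries against 0 of 3 gave 17 ARPE-19-only and 2 H7-only regions. Leaving out each library gave 10 to 13 ARPE-19-only and 1 to 2 H7-only regions, 2 without H7 replicate 1. Within 2 kb of a start, 7 pairs of gene and library had an ARPE-19 peak, the 3 added being PRRX1. Beyond these settings' own construction the cause was not tested.

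Whether same-numbered libraries of the 2 lines share more than a number is not in the labels. The correlations of their deviations over 2872 bins of 1 Mb were 0.024, -0.052 and 0.099. Pairs of unlike number had correlations from -0.134 to 0.104. A shared batch was not tested. With the replicate number as a block, the log2 difference in peak number was again 1.90 (exact sign-flip p = 0.25, the smallest that 8 assignments give), and that in the share 0.19 (exact p = 1).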
